A study of Mus musculus with 12 samples.

Results

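Vesicle fusion was followed here through the messages of the proteins that carry it out, in cultures of 3 mouse cell lines. The genes were chosen by symbol alone: syntaxins (Stx), syntaxin-binding proteins (Stxbp), the Snap family, vesicle-associated membrane proteins (Vamp), synaptotagmins (Syt), complexins (Cplx), synapsins (Syn1, Syn2 and Syn3), the Rab3 GTPases and synaptophysin (Syp). The reference table holds 66 such symbols, and 60 of them had probes, out of 17277 genes with a symbol on the array. The 60 genes were read by 192 probes for 64 transcript targets. Stx11, Stxbp5, Syt5 and Vamp9 and the pseudogenes Stxbp3-ps and Vamp7-ps were matched to no probe and are not analysed here. The rule takes in Snap91, which encodes the clathrin adaptor AP180 and is no SNARE protein in spite of its symbol.

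RNA was taken from 4 separately grown plates each of AtT20, a neuroendocrine line from a mouse pituitary tumor, BV2, an immortalized mouse microglial line, and N18, a mouse neuroblastoma line, with 1 NimbleGen array per plate. None of the 12 plates was treated, and all were grown in the same serum-containing medium. Each cell type stands here as 1 established line, so plates are replicates of a culture and not of microglia or neurons. The study asked what these lines express before a receptor is introduced into them.

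SNARE proteins drive the merging of a vesicle with its target membrane. A Vamp protein on the vesicle zips into a helical bundle with a syntaxin and a Snap family member on the target membrane. Sec1/Munc18 proteins, among them Stxbp2 and Stxbp3, hold and guide the syntaxin, synaptotagmins sense calcium, complexins hold the partly zipped bundle and help trigger it, and the ATPase Nsf takes spent bundles apart. Neurons are known for Stx1a, Snap25, Vamp2, Syt1 and Cplx1, whereas granule release in leukocytes is known for Stx3, Stx4a, Snap23, Vamp8 and Stxbp2.

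The RefSeq table of promoters (build GRCm38.p6, from 250 bases before to 50 after each start) held windows for 47 of the 60 genes. Stretches of Syn1 and Stxbp3 are printed 5′ to 3′ on the strand of the gene, since theirs were the windows that held a motif searched for. The capitals mark the exact matches that were found to TTCAGCACC, the left part of the RE1 element bound by the repressor Rest, and to TGACGTCA, the cAMP response element.
Syn1, chrX:20921059-20921168, minus strand: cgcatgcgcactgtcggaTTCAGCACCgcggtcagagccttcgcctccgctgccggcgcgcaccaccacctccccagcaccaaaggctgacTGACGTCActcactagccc
Stxbp3, chr3:108840578-108840635, minus strand: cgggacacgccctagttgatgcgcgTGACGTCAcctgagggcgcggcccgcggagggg
In Syn1 the match to RE1 begins at base -232 from the start and that to the cAMP response element at base -159, and in Stxbp3 the latter begins at base -108. Both strands were searched, and no other window of the 47 genes held either motif. The part of RE1 was in 1 of 60 windows of these genes (1.67%) and in 0.37% of all 32851 windows. The cAMP response element was in 2 of the 60 windows (3.33%) and in 1.79% of all windows. A match of letters is not a measured binding site.

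The 120 bases before the start are shown for Syp and Cplx1, which were among the genes with the largest excess in N18 over BV2, and for Stxbp2, the gene with the largest excess in BV2. Capitals mark CG pairs here.
Syp, chrX:7638460-7638579, plus strand: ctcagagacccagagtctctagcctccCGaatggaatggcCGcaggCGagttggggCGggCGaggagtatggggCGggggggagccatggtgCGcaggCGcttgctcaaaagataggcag
Cplx1, chr5:108550028-108550147, minus strand: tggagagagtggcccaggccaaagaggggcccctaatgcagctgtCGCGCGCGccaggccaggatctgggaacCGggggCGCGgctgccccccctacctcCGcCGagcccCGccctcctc
Stxbp2, chr8:3630989-3631108, plus strand: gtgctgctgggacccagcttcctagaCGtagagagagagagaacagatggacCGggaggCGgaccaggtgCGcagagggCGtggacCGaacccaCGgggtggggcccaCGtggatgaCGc
Over whole windows the median number of CG pairs was 19 for the vesicle fusion genes, with a range of 2 to 49, and 13 for all protein-coding genes. It was 19 for genes higher in N18 than in BV2, 17 for genes higher in BV2 and 22 for genes with no call between these lines.

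A level, as used below, is the log2 intensity of a gene on a plate minus the mean of 10 seminal proteins on the same plate, which stand for no expression. A gene was above the detection threshold when its mean level over 4 plates was over 2 SD of the seminal proteins, which was 0.74 in N18, 0.56 in BV2 and 0.37 on the plates labelled AtT20. A difference between lines is on the log2 scale after quantile normalization of all arrays, with its SE and adjusted p from limma, and a gene is called when the adjusted p, taken over all 25128 genes and unnamed targets, is under 0.05. Microglial markers were above the threshold for 14 of 15 genes in BV2 (mean level per plate 3.38 to 3.98), and 14 of 16 neuroblast markers were above it in N18 (2.64 to 2.92). In N18, 4 of the microglial markers were above the threshold, with a mean over the whole list of 0.34 to 0.45 per plate, and in BV2 8 of the neuroblast markers were, with 0.49 to 0.65. On the plates labelled AtT20, 9 of the neuroblast markers were above the threshold (0.63 to 1.24). There, 2 of 12 corticotroph markers were above the threshold, with mean levels per plate of 0.12 to 0.29, and Pomc, the hormone precursor that defines corticotrophs, was below it at 0.29 ± 0.26 (SD, n = 4). The interquartile range of intensities on those arrays was 0.38 to 0.78, against 1.28 to 1.73 in BV2 and 1.91 to 2.21 in N18. Of 7 markers of other pituitary cells, 2 were above the threshold there, and of 10 mesenchymal markers 6, with mean levels per plate of 0.33 to 0.87. In N18, 7 of the corticotroph markers (1.65 to 1.89) and 5 of the mesenchymal markers (0.91 to 1.10) were above the threshold, against 2 (0.10 to 0.14) and 2 (0.11 to 0.21) in BV2, and the part of such markers in the results was not tested. Results for AtT20 are therefore given for the plates labelled so. Differences from them are given gene by gene only where quantile normalization, the seminal proteins and unnormalized values gave the same call. The slide on which each array lay was not given in the sources used here, so slide and cell line cannot be told apart. The RNA was from whole cultures, so fewer cells with a message and less message per cell cannot be told apart either.

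Messages for vesicle fusion were found above the threshold for 39 of 60 genes in N18 (65%), 31 in BV2 (51.7%) and 19 on the plates labelled AtT20 (31.7%). Among all genes and targets the shares were 55.4%, 53.3% and 35% in the same order. In N18 the genes above the threshold were 10 of 14 syntaxins, 8 of 16 synaptotagmins, 6 of 7 Vamp genes, all 3 synapsins, Syp, and 2 each of the Snap, complexin and Rab3 genes. BV2 had 11 syntaxins, 6 synaptotagmins and 5 Vamp genes above its threshold. No Rab3 gene was above the threshold in BV2 or on the plates labelled AtT20. The plates labelled AtT20 had 6 syntaxins, 5 Vamp genes, 3 synaptotagmins and no Snap family gene above their threshold.

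A set of 18 genes was above the threshold in all 3 lines, among them Stx1a, Vamp1, Vamp2, Vamp3, Vamp8, Stx4a, Stx5a, Stx6, Stxbp2 and Syp. Of these, Syp and Vamp3 on the plates labelled AtT20 and Stx1a in BV2 had 1 of 3 probes above the threshold. Stx6 and Stxbp2 on the plates labelled AtT20 and Vamp3 in BV2 were above the threshold on 3 of 4 plates. The 11 genes above it in N18 alone were Cplx1, Rab3a, Rab3c, Snap91, Stx12, Stxbp4, Syt1, Syt2, Syt4, Syt6 and Vamp4, while BV2 alone had Stx3, Stx17, Syt8 and Syt12. Each of these BV2 calls was lost under some of the 9 other detection rules, those of Stx17 and Syt8 under 6, that of Stx3 under 5 and that of Syt12 under 2. Stx17 had a mean level of 0.64 ± 0.09 in N18 and 0.60 ± 0.15 in BV2, so the thresholds of the lines set its call. Another 9 genes, among them Snap47, Stx16, Stxbp3, Syn1 and Syt11, were above the threshold in BV2 and N18 but not on the plates labelled AtT20. Syn2 was the 1 gene above it on the plates labelled AtT20 and in N18 but not in BV2. On the plates labelled AtT20, 1 of its 3 probes was above the threshold, and its call held under 5 of the 9 other detection rules. The remaining 17 genes were below the threshold everywhere, and these include Snap23, Snap25, Snap29, Vamp7 and Rab3b. Over all genes and targets, 25.1% were above the threshold in all 3 lines, 7.02% in N18 alone and 4.49% in BV2 alone. Another 21.1% were above it in BV2 and N18, 2.17% on the plates labelled AtT20 and in N18, and 32.4% in none. Being above a threshold in one line and not in another is no test of a difference, and the differences are tested below.

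**Figure D1:**
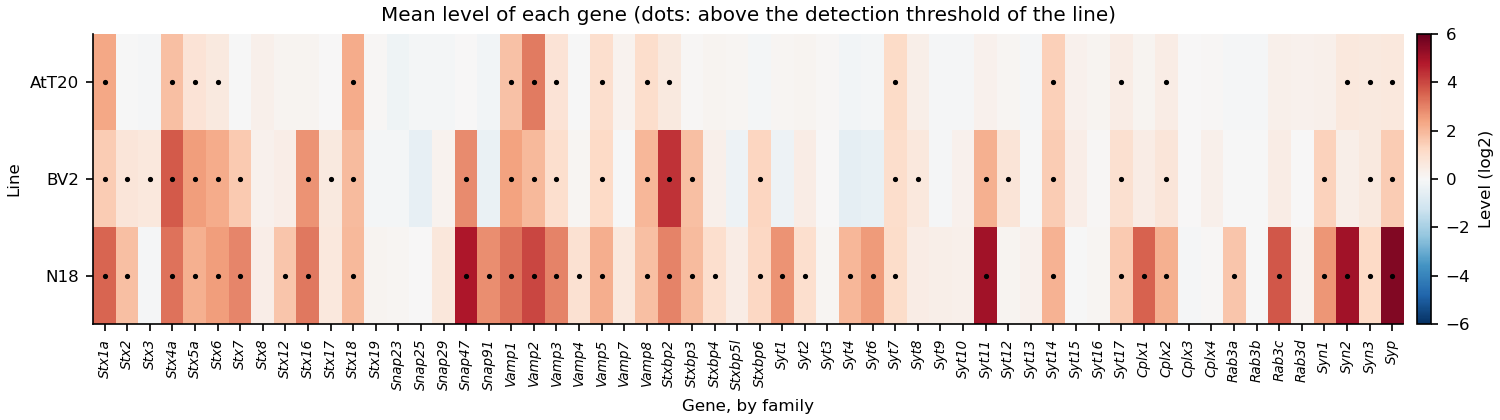
Mean level (log2, above the seminal proteins) of 58 of the 60 genes in each line over 4 plates, arranged by family on the horizontal axis, with a dot where the gene was above the threshold of the line. Dots mark 37 of the plotted genes in N18, 29 in BV2 and 18 on the plates labelled AtT20, and colors compare lines within a gene, since probes of different genes differ in how strongly they bind.

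Between N18 and BV2, 27 of the 60 genes were higher in N18 (45%) and 12 were higher in BV2 (20%). The background over all genes and targets was 19% and 21.9%. The share higher in N18 was thus over the background, while that higher in BV2 was close to it. The median difference (N18 minus BV2) was 0.19 over the 60 genes and -0.06 over all genes and targets. With levels relative to the seminal proteins the medians were 0.56 and 0.18, with 35 genes called higher in N18 and 4 in BV2, and without normalization they were 0.53 and 0.15, with 31 and 3. Shares over all genes and targets were not counted for either of these scalings on its own, here or below. All 27 genes higher in N18 kept that call under each of the 3 scalings. Over all genes and targets, 4700 of 4775 higher in N18 did (18.7% of all). Of the 12 higher in BV2, 3 kept it, namely Stxbp2, Stx3 and Syt12, against 1798 of 5495 over all (7.16% of all). In 26 of the 27 genes higher in N18 every probe pointed the same way, as in 8 of the 12 higher in BV2. The called genes include 4 that were below the threshold in both lines, namely Snap25, Stxbp5l, Vamp7 and Syt15.

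**Figure D2:**
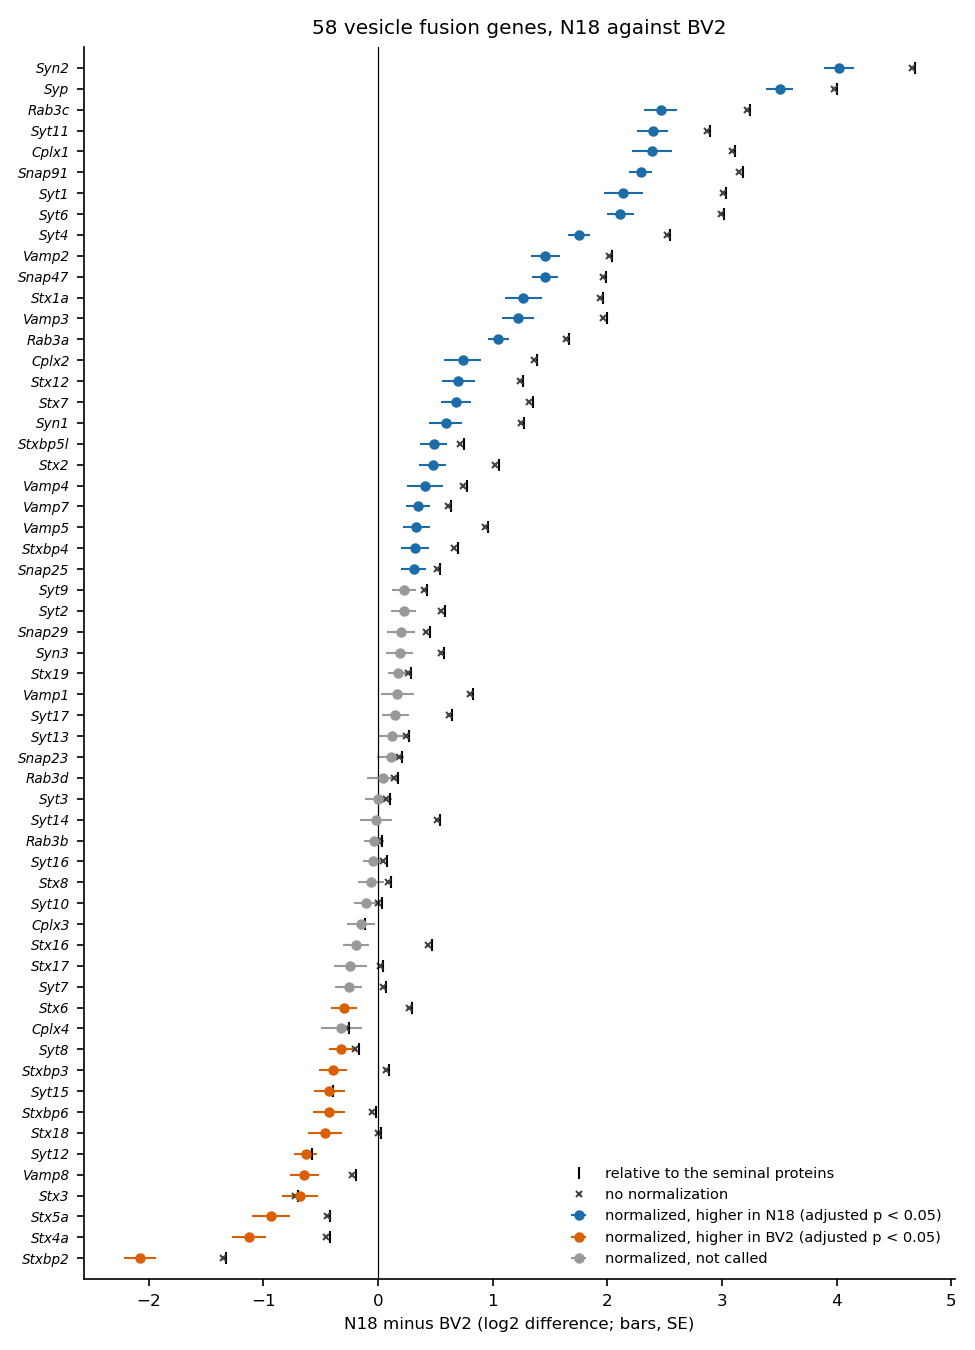
Difference between N18 and BV2 (horizontal axis, log2, N18 minus BV2) for 58 of the 60 genes, with circles and SE bars for quantile-normalized values (blue, higher in N18; orange, higher in BV2; grey, not called), ticks for levels relative to the seminal proteins and crosses for unnormalized values. The 25 blue circles lie to the right of 0, as do their ticks and crosses, while ticks and crosses of most orange genes lie closer to 0 or to its right.

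Stx1a, a syntaxin of the neuronal plasma membrane, had levels of 3.50, 3.65, 3.29 and 3.46 in N18, 1.68, 1.49, 1.61 and 1.27 in BV2 and 1.98, 3.20, 1.81 and 2.38 on the plates labelled AtT20. Every N18 plate was above every BV2 plate, and the difference from BV2 was 1.27 ± 0.16 (SE, adjusted p = 6.96e-06). In BV2, 1 of its 3 probes was above the threshold.

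Snap25 encodes the plasma membrane SNARE that pairs with syntaxin in neurons, and it was not detected above the threshold in any of the lines. Its levels were 0.04, 0.05, -0.10 and 0.19 in N18, -0.60, -0.27, -0.69 and -0.43 in BV2 and -0.17, -0.16, -0.02 and -0.05 on the plates labelled AtT20. In N18 its 3 probes gave mean levels of -0.72 to 0.88, so that 1 of 3 lay above the threshold of 0.74. The difference from BV2 of 0.31 ± 0.11 (SE, adjusted p = 0.0306) is between values that were below the threshold in both lines, and it lost its call without BV2 plate 1, 3 or 4 or N18 plate 1, 2 or 4. Its broadly expressed paralog Snap23 was likewise below the threshold, with mean levels of 0.11 ± 0.19 (SD, n = 4) in N18 and -0.10 ± 0.28 in BV2 and a difference of 0.11 (adjusted p = 0.482). Snap29, a paralog of intracellular membranes, reached 0.68 ± 0.12 in N18 against the threshold of 0.74. Of 12 genes expressed in all cells, 11 were above the threshold in each line. The exception was the ribosomal protein gene Rplp0, at 0.18 in N18, 0.41 in BV2 and -0.20 on the plates labelled AtT20. A level below the threshold is thus no proof that a message was absent.

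Snap47, a more distant relative found on intracellular membranes, was the one SNARE of the Snap family above the threshold, in N18 and in BV2. Its levels were 4.86, 4.98, 4.63 and 4.86 in N18, 3.13, 2.64, 2.56 and 3.03 in BV2 and 0.00, 0.15, -0.11 and 0.09 on the plates labelled AtT20. The lines did not overlap, and N18 was higher than BV2 by 1.45 ± 0.11 (SE, adjusted p = 2.35e-08). All of its probes were above the threshold in both lines. The clathrin adaptor Snap91 stood at 2.69, 3.12, 2.65 and 2.76 in N18 and at -0.39, -0.41, -0.33 and -0.39 in BV2. It was at least 2.7-fold higher in N18, where the plates of the line below the threshold are set to that threshold or their own value, whichever is higher, and the smallest of the bounds from the 3 scalings is given. Its normalized difference was 2.29 ± 0.10 (SE, adjusted p = 1.33e-11).

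**Figure D3:**
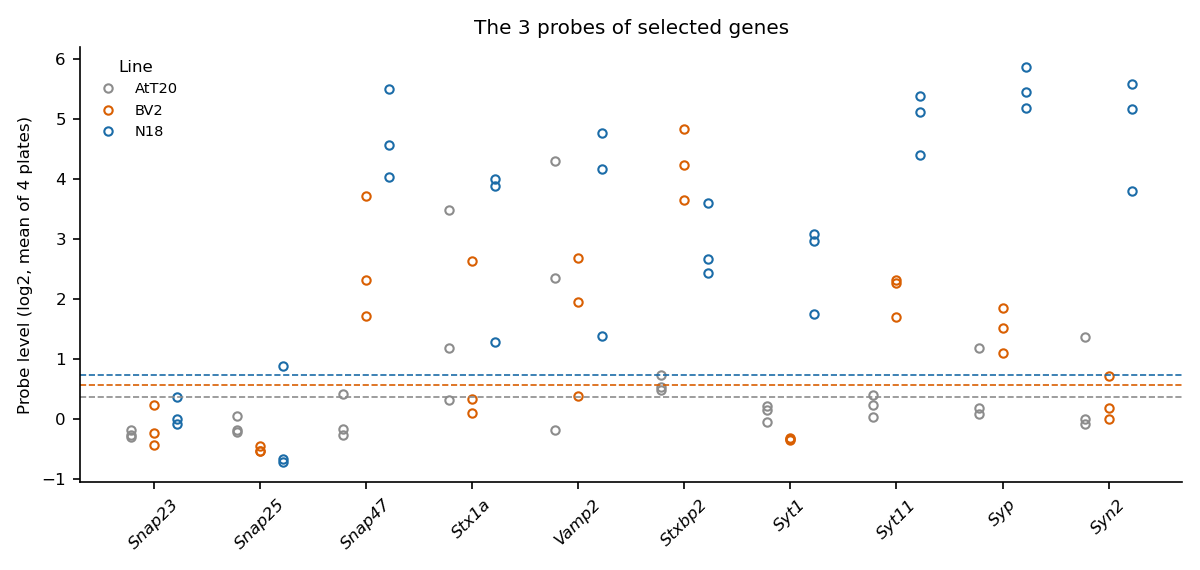
Mean level over 4 plates (vertical axis, log2) of each of the 3 probes of 10 genes in each line, with dashed lines at the detection threshold of each line. The probes of Snap23 and Snap25 lie between -0.72 and 0.37 in every line, apart from 1 N18 probe of Snap25 at 0.88, and those of Snap47 lie between 4.03 and 5.50 in N18.

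Among the vesicle SNAREs, Vamp2, the synaptobrevin of synaptic vesicles, had levels of 3.97, 4.22, 3.76 and 4.03 in N18, 2.23, 1.86, 1.63 and 2.08 in BV2 and 3.49, 3.27, 2.35 and 3.30 on the plates labelled AtT20. It was higher in N18 than in BV2 by 1.46 ± 0.13 (SE, adjusted p = 8.57e-08), without overlap. Vamp3, the cellubrevin of recycling endosomes, had levels of 2.79, 3.36, 2.94 and 2.90 in N18 and 1.40, 0.75, 0.64 and 1.23 in BV2. The groups were apart, with a difference of 1.22 ± 0.14 (SE, adjusted p = 1.91e-06). The second neuronal synaptobrevin, Vamp1, differed by 0.17 (adjusted p = 0.387), with mean levels of 3.24 ± 0.24 in N18 and 2.41 ± 0.23 in BV2. This difference was called relative to the seminal proteins (0.83) and in unnormalized values (0.80), but not after quantile normalization.

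Vamp8, a SNARE of late endosomes and secretory granules, was higher in BV2 after quantile normalization, with a difference of -0.64 ± 0.13 (SE, adjusted p = 0.000603). It was not called under the other scalings, where the differences were -0.19 relative to the seminal proteins and -0.22 in unnormalized values. Vamp4, of the trans-Golgi network, was above the threshold in N18 alone (0.89 ± 0.15) and higher there by 0.41 (adjusted p = 0.0432). Vamp5, known from muscle, was above the threshold in all lines and higher in N18 by 0.34 (adjusted p = 0.0288), a call that was lost without plate 1 or 4 of either line. Vamp7, of late endosomes and lysosomes, was below the threshold in each line.

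Stxbp2, a Sec1/Munc18 protein of epithelial and blood cells, had levels of 4.67, 4.20, 4.04 and 4.38 in BV2, 2.99, 3.28, 2.78 and 2.95 in N18 and 0.65, 0.79, 0.20 and 0.80 on the plates labelled AtT20. The BV2 plates were all above the N18 plates, with a difference (N18 minus BV2) of -2.08 ± 0.14 (SE, adjusted p = 4.09e-09). This excess in BV2 was smaller relative to the seminal proteins (-1.32) and in unnormalized values (-1.35), and it was called each time. Stxbp3, which pairs with Stx4a in many tissues, had mean levels of 1.82 ± 0.34 in BV2 and 1.92 ± 0.25 in N18. Its difference of -0.39 (adjusted p = 0.0165) turned to 0.10 relative to the seminal proteins, and its call was lost without BV2 plate 1. Stxbp4 was above the threshold in N18 alone and higher there by 0.32 (adjusted p = 0.046). Stxbp6, which binds SNAREs without the Sec1/Munc18 fold, had mean levels of 1.27 ± 0.23 in BV2 and 1.25 ± 0.22 in N18 and a difference of -0.43 (adjusted p = 0.0227), called after quantile normalization alone. In both lines 1 of its 3 probes was above the threshold. Stxbp5l, a tomosyn that inhibits SNARE assembly, was below the threshold in every line.

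Stx3 and Stx4a are plasma membrane syntaxins of epithelia and leukocytes. Stx3 had levels of 0.83, 0.43, 0.43 and 0.78 in BV2, -0.14, -0.01, -0.06 and -0.09 in N18 and 0.22, -0.16, -0.11 and -0.16 on the plates labelled AtT20. The BV2 plates lay above all N18 plates, the difference being -0.68 ± 0.16 (SE, adjusted p = 0.00234), and 3 of its 6 probes were above the threshold in BV2. Its 2 targets were at 1.09 and 0.14 in BV2, the latter below the threshold. Stx4a had mean levels of 3.66 ± 0.27 in BV2 and 3.24 ± 0.29 in N18. It was higher in BV2 by normalized values, with a difference of -1.12 (adjusted p = 1.12e-05), but was not called relative to the seminal proteins (-0.42) or in unnormalized values (-0.45).

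The other syntaxins went in both directions. Stx7 and Stx12, of endosomes, were higher in N18, by 0.68 (adjusted p = 0.000555) and 0.70 (adjusted p = 0.00095), and Stx2, of the plasma membrane, was higher by 0.48 (adjusted p = 0.00356). Stx5a, of the Golgi, and Stx18, of the endoplasmic reticulum, were higher in BV2 after quantile normalization, with differences of -0.93 (adjusted p = 0.00024) and -0.46 (adjusted p = 0.0213). Neither was called under the other scalings, and Stx18, whose call was lost without BV2 plate 1 or 2 or N18 plate 1 or 4, stood at 0.03 relative to the seminal proteins. Stx6, of the trans-Golgi network, had a difference of -0.30 (adjusted p = 0.0443) and changed sign without normalization (0.27) and relative to the seminal proteins (0.30). Its call was lost without any 1 plate of the pair but BV2 plate 3. Stx16, its partner there, was well above the threshold in both lines, at 3.17 ± 0.36 in N18 and 2.70 ± 0.31 in BV2, and was not called, with a difference of -0.19 (adjusted p = 0.203). This difference turned to 0.47 relative to the seminal proteins and to 0.44 without normalization, again not called. Stx8 and Stx19 were below the threshold everywhere, Stx17 was above it in BV2 alone and on 1 of its 3 probes, and none of them was called between N18 and BV2.

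Syt1, the calcium sensor of fast synaptic release, had levels of 2.59, 3.21, 2.58 and 2.47 in N18, -0.43, -0.18, -0.41 and -0.29 in BV2 and 0.39, 0.07, 0.07 and -0.05 on the plates labelled AtT20. It was above the threshold in N18 alone, at least 2.5-fold higher than in BV2, with a normalized difference of 2.14 ± 0.17 (SE, adjusted p = 3.32e-08). The other fast sensor, Syt2, was above the threshold in N18 alone with a mean level of 1.01 ± 0.08, and its difference from BV2 of 0.22 (adjusted p = 0.122) was not called. It was called relative to the seminal proteins (0.58) and in unnormalized values (0.55).

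Syt11 does not bind calcium and is known from several tissues, brain and macrophages included. It had levels of 5.02, 5.34, 4.92 and 4.85 in N18 and 2.31, 1.98, 1.98 and 2.25 in BV2, against 0.27, 0.21, 0.26 and 0.23 on the plates labelled AtT20. The lines did not overlap, and N18 was above BV2 by 2.40 ± 0.14 (SE, adjusted p = 4.16e-10). Syt4, a synaptotagmin of dense-core and other peptide-containing vesicles, had levels of 1.88, 2.41, 1.91 and 1.84 in N18 and -0.48, -0.41, -0.80 and -0.46 in BV2. Every N18 plate was above every BV2 plate, and the excess was at least 1.7-fold, with a difference of 1.75 (adjusted p = 2.56e-10). Syt6, known from the acrosome of sperm, stood at 2.61, 2.91, 2.45 and 2.26 in N18 and -0.51, -0.17, -0.71 and -0.48 in BV2, again without overlap. It was at least 2.3-fold higher in N18, with a difference of 2.11 (adjusted p = 3.32e-10).

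Syt7, a slow sensor with high calcium affinity that also serves lysosomes, was above the threshold in each line, with mean levels of 1.11 ± 0.15 in N18, 1.04 ± 0.10 in BV2 and 1.13 ± 0.46 on the plates labelled AtT20. These are means of 3 targets, the lowest of which was below the threshold in N18 (0.22) and BV2 (0.21) and at 0.43 on the plates labelled AtT20. Syt7 was not called between N18 and BV2, with a difference of -0.26 (adjusted p = 0.0971). Syt14 and Syt17 were also above the threshold everywhere and were not called between N18 and BV2, with differences of -0.02 (adjusted p = 0.941) and 0.15 (adjusted p = 0.311) after quantile normalization. Syt17 was called higher in N18 relative to the seminal proteins (0.65) and in unnormalized values (0.62), and Syt14 was not, at 0.54 and 0.51. Syt12 was above the threshold in BV2 alone, at 0.76, 0.70, 0.89 and 0.70, against 0.19, 0.19, 0.21 and 0.16 in N18. Its groups did not overlap and differed by -0.63 ± 0.10 (SE, adjusted p = 8.36e-05). Syt8, likewise above it in BV2 alone, differed by -0.32 (adjusted p = 0.0203), a difference that was not called under the other scalings. The 6 synaptotagmins Syt3, Syt9, Syt10, Syt13, Syt15 and Syt16 were below the threshold in every line. Syt15 was so as the mean of its 2 targets, the higher of which was at 0.57 on the plates labelled AtT20, above their threshold.

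Cplx1, a complexin of central synapses, had levels of 3.53, 3.94, 3.40 and 3.36 in N18, 0.65, 0.39, 0.30 and 0.43 in BV2 and -0.07, 0.27, 0.13 and 0.37 on the plates labelled AtT20. The N18 plates were far above all others, at least 4.8-fold over BV2, with a normalized difference of 2.39 ± 0.17 (SE, adjusted p = 9.18e-09). Cplx2, its paralog, had levels of 2.23, 2.10, 1.84 and 2.35 in N18 and 0.82, 0.55, 0.88 and 0.70 in BV2. It was above the threshold in both, without overlap, and higher in N18 by 0.74 ± 0.16 (SE, adjusted p = 0.00142). Cplx3 and Cplx4, known from retinal ribbon synapses, were below the threshold in all lines.

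Rab3c, a GTPase of secretory vesicles, had levels of 3.65, 4.14, 3.53 and 3.53 in N18 and 0.36, 0.42, 0.63 and 0.45 in BV2. It was at least 5.2-fold higher in N18, and the normalized difference was 2.47 ± 0.14 (SE, adjusted p = 5e-10). Rab3a, the major Rab3 of synaptic vesicles, had levels of 1.56, 1.91, 1.48 and 1.61 in N18 and 0.00, -0.17, 0.05 and 0.00 in BV2, and was at least 1.4-fold higher in N18, with a difference of 1.05 (adjusted p = 9.07e-08). Rab3b and Rab3d, of endocrine and exocrine granules, were below the threshold everywhere and differed between N18 and BV2 by -0.03 (adjusted p = 0.793) and 0.05 (adjusted p = 0.824).

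The largest differences of the 60 genes were in vesicle proteins that are not part of the fusion machine. Syn2, a synapsin that tethers vesicles to actin, had levels of 4.87, 5.28, 4.92 and 5.05 in N18, 0.38, 0.18, 0.47 and 0.36 in BV2 and 0.96, 0.89, 0.33 and 0.35 on the plates labelled AtT20. It was at least 14.1-fold higher in N18 than in BV2, with a normalized difference of 4.02 ± 0.13 (SE, adjusted p = 3.65e-13). Syp, a membrane protein of synaptic vesicles, had levels of 5.39, 5.90, 5.44 and 5.40 in N18, 1.71, 1.33, 1.44 and 1.63 in BV2 and 0.76, 1.02, 0.26 and 0.42 on the plates labelled AtT20. The N18 plates were above all others, all probes were above the threshold in N18 and BV2, and N18 was higher by 3.50 ± 0.12 (SE, adjusted p = 5.01e-13). Syn1 had levels of 2.47, 2.56, 2.74 and 2.79 in N18 and 1.77, 1.22, 1.03 and 1.44 in BV2 and a difference of 0.59 ± 0.14 (SE, adjusted p = 0.00345). Syn3 was above the threshold in each line, and its difference of 0.19 (adjusted p = 0.222) was not called after quantile normalization.

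**Figure D4:**
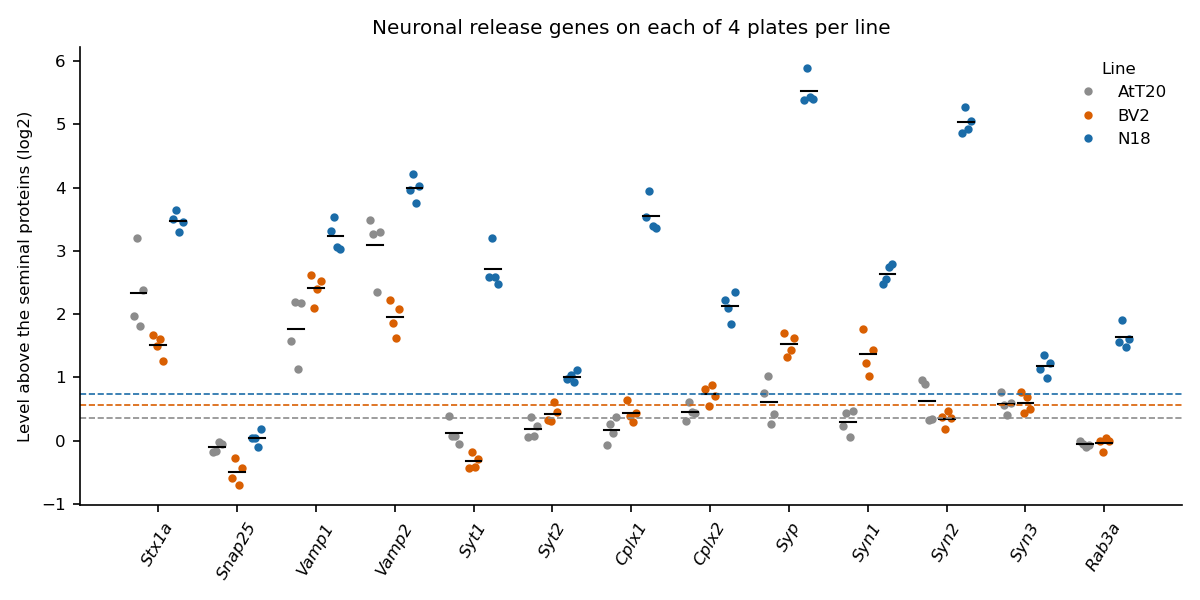
Level on each plate (vertical axis, log2 above the seminal proteins; points, 4 plates per line; bars, their mean) of 13 genes known from neuronal release, with dashed lines at the detection threshold of each line. The N18 points lie above the BV2 points for every gene, and those of Snap25 are below the thresholds in all lines. On this scale the median difference (N18 minus BV2) over all genes and targets was 0.18. The share of all genes and targets whose N18 and BV2 plates did not overlap was not counted. After quantile normalization the N18 and BV2 plates of Vamp1 and Syt2 overlapped.

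Of 13 genes known from neuronal release (Stx1a, Snap25, Vamp1, Vamp2, Syt1, Syt2, Cplx1, Cplx2, Syp, Rab3a and the synapsins), 12 were above the threshold in N18 (92.3%, background 55.4%), 7 in BV2 (53.8%, background 53.3%) and 7 on the plates labelled AtT20 (53.8%, background 35%). With olfactory receptor genes in place of the seminal proteins, Cplx2, Syn2, Syn3 and Syp lost this call on the plates labelled AtT20. Cplx2 and Syn3 lost it in BV2, and Syn3 and Syt2 in N18. The background under these controls was not counted. On the plates labelled AtT20, Syn2 and Syp each had 1 of 3 probes above the threshold, as had Stx1a and Syn3 in BV2. Of the 13, 10 were called higher in N18 than in BV2 (76.9%, background 19%) and 0 higher in BV2 (background 21.9%), with a median difference of 1.05. The other 3, Vamp1, Syt2 and Syn3, had unadjusted p values of 0.265, 0.0605 and 0.13 in limma and were higher in N18 in direction. Of 11 genes known from release outside neurons (Stx3, Stx4a, Snap23, Vamp3, Vamp7, Vamp8, Stxbp2, Stxbp3, Syt7, Syt11 and Rab3d), 3 were higher in N18 (27.3%) and 5 in BV2 (45.5%), and the median difference was -0.26, against -0.06 over all genes and targets. Relative to the seminal proteins 3 and 2 were, with a median of 0.10, and without normalization also 3 and 2, with 0.07. The 3 higher in N18 after quantile normalization were Vamp3, Syt11 and Vamp7, the last of which was below the threshold in both lines.

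The plates labelled AtT20 differed from BV2 in 46 genes, 12 higher in BV2 (20%, background 26.6%) and 34 higher on the plates labelled AtT20 (56.7%, background 47%). Relative to the seminal proteins the split was 24 to 8, and without normalization 6 to 46. The median difference (BV2 minus AtT20) was 0.19 over the 60 genes and 0.28 over all genes and targets in the former. In the latter it was -1.17 and -1.08. Only 6 of the 12 and 8 of the 34 genes kept their call and direction under all 3 scalings. Over all genes and targets 2938 of 6687 and 4313 of 11808 did (11.7% and 17.2% of all). Among the 6 were Snap47, Stx16, Stx4a, Stxbp2 and Syt11, and the largest difference of the 6 was 2.64 ± 0.14 (SE, adjusted p = 8.33e-11) for Stxbp2 (BV2 minus AtT20). Snap47 was at least 2.1-fold and Stx16 at least 1.9-fold higher in BV2.

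Of the 8 genes higher on the plates labelled AtT20, Stx1a and Vamp2 were above the threshold there. Stx1a differed by -1.93 ± 0.16 (SE, adjusted p = 1.62e-08) and Vamp2 by -2.11 ± 0.13 (SE, adjusted p = 3.29e-10) (BV2 minus AtT20), without overlap between plates. One probe of Vamp2 on the plates labelled AtT20 had a mean level of -0.18 while another had 4.30. The other 6, Snap25, Stx19, Stxbp5l, Syt1, Syt4 and Syt6, were below the threshold in both lines.

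Against N18, the plates labelled AtT20 differed in 48 genes, 23 higher in N18 (38.3%, background 27.8%) and 25 higher on the plates labelled AtT20 (41.7%, background 48.6%). The split was 45 to 1 relative to the seminal proteins and 19 to 30 without normalization. The median difference (N18 minus AtT20) was 1.03 over the 60 genes and 0.54 over all genes and targets in the former. In the latter it was -0.36 and -0.85. Under all 3 scalings 18 of the 23 genes stayed higher in N18. Over all genes and targets 4702 of 6981 did (18.7% of all). Of the 25, 1 stayed higher on the plates labelled AtT20, against 4023 of 12211 over all (16% of all). It was Syt15, which as the mean of its 2 targets was below the threshold in both lines. On the plates labelled AtT20 these targets were at 0.57, above the threshold of 0.37, and at -0.06. Among the largest differences (N18 minus AtT20) were 3.58 ± 0.11 (SE, adjusted p = 2.37e-13) for Snap47, 3.42 ± 0.12 (SE, adjusted p = 4.75e-13) for Syp and 3.33 ± 0.14 (SE, adjusted p = 3.46e-12) for Syt11. As lower bounds, Syt11 was at least 8.2-fold and Snap47 at least 7.1-fold higher in N18. Genes expressed in all cells were lower on the plates labelled AtT20 too. The median level of the 12 listed was 3.00 there, 5.40 in BV2 and 5.90 in N18. The part of this in the differences from either line was not tested. The comparisons with AtT20 share its 4 plates with each other. Stx1a and Vamp2 were not called in the same direction under all 3 scalings against N18.

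Lists of 71 further genes of the pathway gave 23 higher in N18 (32.4%, background 19%), 18 higher in BV2 (25.4%, background 21.9%) and a median difference of 0.03. Relative to the seminal proteins the counts were 35 and 4 and without normalization 32 and 1. The medians were then 0.37 and 0.34, against 0.18 and 0.15 over all genes and targets. Of 25 genes for priming and tethering, 9 were higher in N18 (36%) and 4 in BV2 (16%). Rims2, an active zone scaffold, had mean levels of 3.19 ± 0.18 (SD, n = 4) in N18 and 0.23 ± 0.07 in BV2, at least 3.4-fold apart, with a difference of 2.10 ± 0.16 (SE, adjusted p = 2.02e-08). Its relative Rims3 had 2.67 ± 0.25 in N18 and 0.53 ± 0.21 in BV2 and was at least 2.4-fold higher in N18, with a difference of 1.35 ± 0.12 (SE, adjusted p = 1.65e-07). Of 18 proteins of the vesicle membrane or its recycling, 6 were higher in N18 (33.3%) and 5 in BV2 (27.8%). Amph, which serves vesicle endocytosis, had 2.64 ± 0.24 in N18 and -0.29 ± 0.12 in BV2, at least 2.4-fold apart, with a difference of 2.06 ± 0.10 (SE, adjusted p = 3.11e-11). Scamp2, a carrier membrane protein, was higher in BV2 after quantile normalization with a difference of -0.95 ± 0.11 (SE, adjusted p = 1.6e-06).

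Of 17 other SNAREs and Sec1/Munc18 proteins, mainly of the Golgi and endosomes, 15 were above the threshold in N18 and 15 in BV2 (88.2% in each, background 55.4% and 53.3%), with 5 higher in each (29.4%, background 19% and 21.9%). Relative to the seminal proteins 9 were higher in N18 and 1 in BV2, and without normalization 7 and 1. The largest excesses in BV2 were those of the SNARE Vti1a, -0.89 ± 0.11 (SE, adjusted p = 6.36e-06), and of the Golgi Sec1/Munc18 protein Scfd1, -0.79 ± 0.16 (SE, adjusted p = 0.000845). Vti1a was called under all scalings, and Scfd1 and Scamp2 were not called relative to the seminal proteins or without normalization. All 3 genes for the disassembly of SNARE bundles were above the threshold in both lines, and 1 was higher in N18 and 1 in BV2, against 2 and 0 under each of the other scalings. Of 8 exocyst subunits, which tether vesicles at the plasma membrane, all were above the threshold in N18 and 7 in BV2, with 2 higher in N18 (25%) and 3 in BV2 (37.5%), against 4 and 0 under each of the other scalings.

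**Figure D5:**
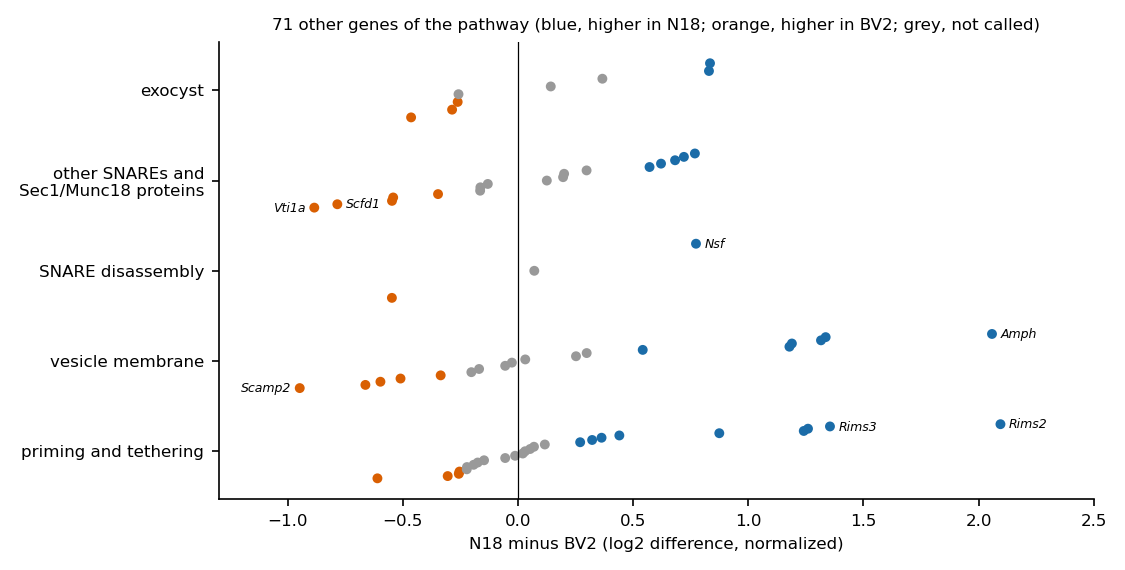
Difference between N18 and BV2 (horizontal axis, log2, N18 minus BV2, quantile-normalized) of 71 further genes of the pathway, 1 point per gene, in 5 lists on the vertical axis. The genes farthest to the right are Rims2 at 2.10 and Amph at 2.06, while no gene lies below -0.95.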

How the data were processed

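Single-color NimbleGen arrays of 72000 probes carried RNA of 12 plates, 4 for each of the lines labelled AtT20, BV2 and N18. The authors deposited log2 values made from the Cy3 intensity of each probe. Per the study's methods the probes of a target were averaged, but in the deposited values they are still separate, and no background subtraction or normalization was found or is described. The study's HEK293 arrays, of human design, are not used here. The values of members were all under the scanner limit of 16. The number of arrays limits the precision.

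Targets were named through RefSeq accessions, which matched 69.4% of 25631 targets. Levels were computed on each plate as the log2 of the linear mean of the probes of a target, averaged over the targets of a gene, minus the mean of the 10 seminal proteins named in the study's methods. The detection threshold was 2 SD of these proteins, averaged over the 4 plates of a line. Differences between lines came from limma 3.58.1 (R 4.3.3), fitted with lmFit and a trended eBayes to all 12 arrays, after quantile normalization of the probes, with Benjamini-Hochberg adjustment over 25128 genes and unnamed targets and an adjusted p under 0.05. The fit was tested on simulated data, drawn on the normalized scale with the same spread of each gene in all lines. That run does not bear on the normalization or on the narrow intensity range of the plates labelled AtT20. The alternatives tried were unnormalized values, scaling to the seminal proteins, averaging probes on the log2 scale, normexp background correction with an offset of 50, the highest target, only genes above the threshold, only the 8 arrays of a pair, a replicate block, a difference of at least 1, no trend, 9 other detection rules, and leaving out each plate. Same-numbered plates of different lines were not treated as pairs.

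The genes and the lists of pathway and marker genes were chosen with earlier results of these data known. Named genes were those of the neuronal and other release lists, the 10 largest called differences between N18 and BV2, every gene above the threshold on the plates labelled AtT20, and the 3 other pathway genes with the largest called difference in each direction. For 2 of the 60 genes the values are not reported here, singly or in the lists, named genes and figures, though counts over the 60 genes include them. Other genes named here were chosen after their values were seen. Figures were drawn with Python 3.11.15 and matplotlib 3.10.9.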

Additional observations from a re-analysis of the deposited data

Results flagged for a closer look

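Among 99 groups of 4 plates, 1 for each named gene and line, 3 held a plate whose level lay apart from the other plates by Dixon's criterion, which chance alone exceeds in about 1 of 20 groups. In N18, 2 of them were on plate 2, where Syp had a level of 5.90 against 5.39 to 5.44 on the other plates and Syt1 of 3.21 against 2.47 to 2.59. On the plates labelled AtT20, Stx3 had 0.218 on plate 1 against -0.164 to -0.11, which is below the threshold on every plate. The N18 values of Syp and Syt1 were above the threshold with and without plate 2.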

How the results depend on the processing

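Vesicle fusion genes higher in N18 than in BV2 numbered 15 with a difference of at least 1, in place of 27. Those higher in BV2 numbered 3 without normalization, 4 relative to the seminal proteins and 2 with a difference of at least 1, in place of 12. With only the 8 arrays of the pair they were 32 and 16. Between BV2 and the plates labelled AtT20, genes higher in BV2 were 6 without normalization, 24 relative to the seminal proteins and 7 with a difference of at least 1, in place of 12, and those higher on the plates labelled AtT20 were 8 relative to the seminal proteins, 14 over genes above the threshold and 6 with a difference of at least 1, in place of 34. Genes higher in N18 than on the plates labelled AtT20 were 45 relative to the seminal proteins and 13 with a difference of at least 1, in place of 23, and those higher on the latter were 1 relative to the seminal proteins, 13 over genes above the threshold and 3 with a difference of at least 1, in place of 25. With olfactory receptor genes as controls, 11 genes were above the threshold on the plates labelled AtT20 and 19 in BV2, in place of 19 and 31. The cause of these shifts was not tested. Shares over all genes and targets were not counted for any of these alternatives or those below.

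Leaving out each plate in turn gave 23 to 28 genes higher in N18 and 9 to 15 higher in BV2. Between BV2 and the plates labelled AtT20 it gave 11 to 14 and 31 to 35, and between N18 and the plates labelled AtT20 22 to 23 and 23 to 27, in the order of the lines. It left 19 to 21 genes above the threshold on the plates labelled AtT20, 28 to 31 in BV2 and 39 to 40 in N18. Across the 9 other detection rules, 33 of 39 genes stayed above the threshold in N18, 17 of 31 in BV2 and 10 of 19 on the plates labelled AtT20.

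Of the 60 differences between N18 and BV2, 11 changed sign relative to the seminal proteins or without normalization, 3 of them called (Stx18, Stx6 and Stxbp3) and 8 not called. These 8, Stx16, Stx17, Stx8, Rab3b, Syt10, Syt16, Syt14 and Syt7, were called under none of the 3 scalings. Relative to the seminal proteins Stx18 stood at 0.0264, Stx6 at 0.30, Stxbp3 at 0.10, Syt14 at 0.54 and Syt7 at 0.0709. Without normalization Stx6 stood at 0.27, Stxbp3 at 0.0693, Syt14 at 0.51 and Syt7 at 0.0410. Syt14 was also at 0.24 with the mean of log2 probes, and its values without 1 plate ran from -0.0835 to 0.0781, with 0.0781 without BV2 plate 3 and 0.0350 without N18 plate 4. Snap25 lost its call without BV2 plate 1, 3 or 4 or N18 plate 1, 2 or 4, with differences of 0.26 to 0.31. Vamp5 lost it without plate 1 or 4 of either line (0.27 to 0.31), Vamp7 without N18 plate 2 (0.29) and Stxbp3 without BV2 plate 1 (-0.35). Stx18 lost it without BV2 plate 1 or 2 or N18 plate 1 or 4 (-0.44 to -0.41), and Stx6 without any 1 plate of the pair but BV2 plate 3 (-0.32 to -0.25). Without AtT20 plate 1, Syt2 (0.24) and Syt7 (-0.27) were called. In contrast, Syn2, Syp, Rab3c, Syt11, Cplx1, Snap91, Syt1, Syt6 and Stxbp2 were called under every alternative. Without normalization the median difference of all genes and targets moved to 0.15 between N18 and BV2, from -0.06, and to -1.08 between BV2 and the plates labelled AtT20, from -0.23.

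Plates of the same number in different lines correlated in their deviations at -0.105 to 0.319 over 12 pairs, 3 of them over 0.1. The highest was that of plate 2 of BV2 and N18, and 7 of 24 correlated best with their own number. How plates were numbered was not given in the sources used here, so these correlations do not settle whether the numbers pair the lines. With the replicate block, N18 against BV2 gave 25 and 11 genes, BV2 against the plates labelled AtT20 13 and 34, and N18 against those plates 23 and 26.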
